A study of Mus musculus with 37 samples.

Results

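The genes described here are 40 genes of mitosis and DNA replication chosen by symbol, and 39 of them were measured, out of 19937 genes with a probe set of their own on the array. A gene was taken where a probe set carried its symbol and no other, and of 2 such probe sets the one with the higher mean over all arrays was used. Cyclin B1 (Ccnb1) had no probe set under its own symbol alone and has no value here. All 39 passed the filter on dim genes that left 16865 genes for testing. They comprise 13 genes of DNA replication (Mcm2, Mcm3, Mcm4, Mcm5, Mcm6, Mcm7, Cdc6, Gins1, Pcna, Rrm1, Rrm2, Tyms and Hells) and 26 genes of mitosis. The 26 fall into 8 genes of cyclins, mitotic kinases and their partners (Ccna2, Ccnb2, Cdk1, Cdc20, Aurka, Aurkb, Plk1 and Birc5), 7 of the kinetochore and its checkpoint (Bub1, Bub1b, Ttk, Nuf2, Ndc80, Cenpe and Cenpf), 9 of the spindle and cytokinesis (Kif11, Kif20a, Kif23, Kif2c, Tpx2, Nusap1, Prc1, Ect2 and Anln) and 2 of the chromosomes (Mki67 and Top2a).

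RNA from whole mammary glands of mice that lack protein tyrosine phosphatase 1B (PTP1B, gene Ptpn1) in the whole body, called KO here, and from wild-type mice (WT) was hybridised to Affymetrix arrays, 1 array a sample. Both genotypes were on an FVB background, the null allele having been backcrossed for at least 7 generations, and the females were mated when 12 weeks old, so age moved with pregnancy day. P0 is the nulliparous gland, taken in oestrus as judged by a vaginal plug after a night with a male, and P3, P7, P10 and P15 are pregnancy days 3, 7, 10 and 15. KO groups held 4, 3, 5, 3 and 4 arrays on these days, and WT groups 4, 3, 4, 3 and 4, 37 arrays in all. Nothing in the labels says that the replicates were separate animals, so p-values measure only the spread between these arrays, and 3 to 5 arrays a group limit their precision. Levels are log2 intensities as the authors deposited them, a difference of 1 standing for a doubling, and levels of different genes cannot be set against each other on this scale.

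A cell copies its DNA once in each division. The MCM proteins, loaded on DNA with the help of Cdc6 and joined by the GINS complex that holds Gins1, form the helicase that opens the double strand, Pcna is the clamp that tethers the polymerases, and ribonucleotide reductase (Rrm1 and Rrm2) and thymidylate synthase (Tyms) make the nucleotides. Chromosomes are then condensed, attached to the spindle by kinetochores under the watch of the checkpoint kinases, and parted. Cyclin B with Cdk1, Aurora and Polo kinases and spindle motors act in mitosis, and Kif23, Ect2, Prc1 and Anln act in splitting the cell. Early pregnancy is known as a time of epithelial proliferation in the mouse mammary gland, when side branches and alveolar buds form, and late pregnancy as a time when alveoli begin to make milk proteins.

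Promoter sequences are shown first because nearly all of these genes moved together in WT glands, and because the genes of mitosis and of replication are known to carry different elements. Windows from 250 bases before to 50 bases after the annotated start were taken from RefSeq (mouse build GRCm38.p6), and 34 of the 40 genes had one. The CHR element, a site bound by the DREAM and MuvB complexes in G2/M genes, was searched as TTTGAA and TTCGAA, the CCAAT box, a site of NF-Y, as CCAAT, and the E2F site as TTTCCCGC, TTTCGCGC, TTTGCCGC and TTTGGCGC, on both strands, with overlapping matches counted. In the 4 mitosis genes and 2 replication genes printed here, 5′ to 3′ along the gene, capitals mark every match to one of these motifs on either strand.
Ccnb2 (chr9:70421505-70421804, minus strand): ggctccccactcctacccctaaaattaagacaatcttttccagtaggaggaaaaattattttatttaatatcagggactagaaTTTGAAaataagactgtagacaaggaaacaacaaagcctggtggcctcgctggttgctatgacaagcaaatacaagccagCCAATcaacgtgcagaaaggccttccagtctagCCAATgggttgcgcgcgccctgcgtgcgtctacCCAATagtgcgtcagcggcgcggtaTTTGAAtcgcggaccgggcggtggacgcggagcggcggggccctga
Cdk1 (chr10:69352863-69353162, minus strand): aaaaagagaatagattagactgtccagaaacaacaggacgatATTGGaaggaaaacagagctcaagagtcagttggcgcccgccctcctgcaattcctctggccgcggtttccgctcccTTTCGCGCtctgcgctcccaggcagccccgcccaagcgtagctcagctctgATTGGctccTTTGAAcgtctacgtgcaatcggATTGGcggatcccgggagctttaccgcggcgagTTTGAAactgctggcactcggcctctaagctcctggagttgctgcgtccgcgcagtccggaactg
Top2a (chr11:99024140-99024439, minus strand): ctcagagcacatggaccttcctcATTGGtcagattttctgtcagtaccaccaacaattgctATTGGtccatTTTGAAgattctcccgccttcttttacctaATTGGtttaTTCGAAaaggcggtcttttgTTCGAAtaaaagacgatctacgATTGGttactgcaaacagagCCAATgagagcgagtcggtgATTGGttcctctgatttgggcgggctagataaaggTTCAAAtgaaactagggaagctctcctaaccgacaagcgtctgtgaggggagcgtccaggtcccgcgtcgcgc
Kif23 (chr9:61946750-61947049, minus strand): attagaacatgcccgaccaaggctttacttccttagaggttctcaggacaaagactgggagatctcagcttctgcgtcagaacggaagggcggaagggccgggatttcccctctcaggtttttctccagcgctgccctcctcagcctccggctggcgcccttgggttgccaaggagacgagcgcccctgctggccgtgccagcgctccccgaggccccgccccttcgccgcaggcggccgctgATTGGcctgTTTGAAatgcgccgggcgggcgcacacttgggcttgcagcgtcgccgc
Mcm5 (chr8:75109259-75109558, plus strand): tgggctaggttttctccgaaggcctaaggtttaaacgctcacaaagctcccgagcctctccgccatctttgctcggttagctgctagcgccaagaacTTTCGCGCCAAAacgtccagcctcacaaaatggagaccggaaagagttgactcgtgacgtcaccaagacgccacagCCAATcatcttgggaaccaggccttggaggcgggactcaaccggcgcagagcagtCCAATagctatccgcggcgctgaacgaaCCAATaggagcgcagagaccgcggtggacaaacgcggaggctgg
Mcm6 (chr1:128359656-128359955, minus strand): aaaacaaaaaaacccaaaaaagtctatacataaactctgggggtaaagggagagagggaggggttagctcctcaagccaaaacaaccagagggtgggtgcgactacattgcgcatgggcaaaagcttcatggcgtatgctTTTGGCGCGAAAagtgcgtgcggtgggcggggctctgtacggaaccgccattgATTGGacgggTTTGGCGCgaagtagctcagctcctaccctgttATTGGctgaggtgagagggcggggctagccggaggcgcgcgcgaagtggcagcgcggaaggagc
The window of Top2a, the topoisomerase that untangles sister chromatids, held 6 CCAAT and 4 CHR matches. The windows of Ccnb2 and of Cdk1, a cyclin and the kinase it activates, held 3 CCAAT and 2 CHR matches each, and Cdk1 also held 1 E2F match. Kif23, a kinesin of the central spindle, held 1 of each of CCAAT and CHR. The 2 helicase genes held no CHR match and instead held 2 (Mcm5) and 3 (Mcm6) E2F matches beside 3 and 2 CCAAT boxes.

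A CHR match was present in 18 of 23 mitosis windows (78.3%) and in 2 of 11 replication windows (18.2%), against 19.4% of all 27025 promoter windows of the same length. An E2F match was present in 1 of 23 mitosis windows (4.35%) and in 6 of 11 replication windows (54.5%), against 2.32% of all windows. CCAAT was about as frequent in both, at 73.9% of mitosis and 72.7% of replication windows, against 37.9% of all windows. Over 1 CCAAT together with a CHR stood in 43.5% of the mitosis windows and 9.09% of the replication windows, against 2.43% of all. These are matches of letters in a window of fixed length and not measured binding.

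**Figure D1:**
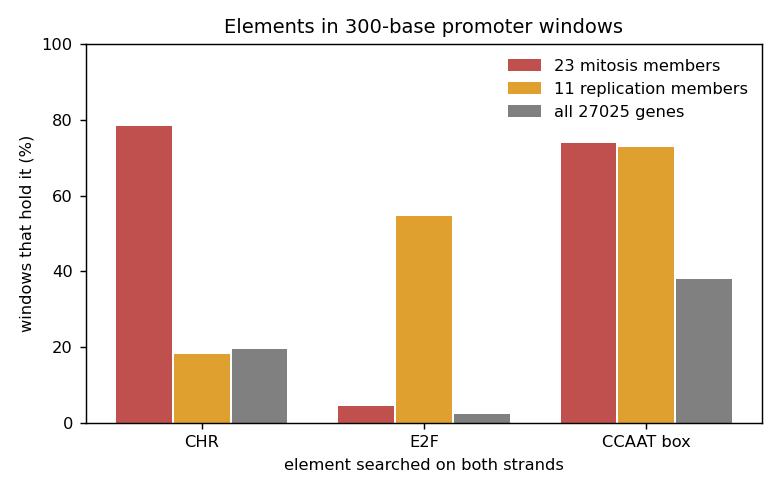
Share of promoter windows (percent, vertical axis) that hold at least 1 match to the CHR, E2F or CCAAT motif, for the 23 mitosis and 11 replication genes with a window and for all 27025 windows. CHR matches stood in 78.3% of mitosis windows and E2F matches in 54.5% of replication windows.

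Ptpn1 itself, read by a probe set that may or may not lie in the deleted part, lay between 5.36 and 6.49 on 18 of the 19 KO arrays and between 7.90 and 9.06 on the 18 WT arrays. The array labelled KO P15 replicate 3 read 8.68, within the WT range, so its label is in doubt and KO values at P15 are given with and without it where it matters. Over 16712 genes outside the cell cycle lists, KO P3 replicate 3 correlated best with the mean of WT P0 (r = 0.53, own group 0.38). WT P0 replicate 2 correlated best with KO P0 (r = 0.37, own group 0.19) and WT P0 replicate 4 with KO P3 (r = 0.57, own group 0.52). In all, 10 of the 37 arrays correlated better with another group than with their own, 8 of them with the other genotype of the same day and 2 with another day. Markers of the gland were measured, since all 22 epithelial and 12 of 14 listed white adipocyte genes had a probe set and passed the filter. The scores of 14 skeletal muscle genes, as means of gene-centred log2 values, reached 5.46 in KO P3 replicate 1 and 5.13 in WT P0 replicate 4. Those of 11 B lymphocyte genes were 4.06 and 3.91 in KO P10 replicates 2 and 3, against -0.31 in KO P10 replicate 1. Those of 11 T lymphocyte genes were 3.35 and 3.39 in KO P10 replicates 2 and 3, against 0.25 in replicate 1.

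The 39 genes were lowest in the nulliparous WT gland and were higher on the third day of pregnancy. At P3, 38 of 39 rose and none fell, with a median change of 1.71 on the log2 scale. Of all genes tested 11.6% rose and 6.5% fell, and their median was -0.03. This and all later tests are limma fits of the 10 group means over the 37 arrays, with Benjamini-Hochberg adjustment over all genes tested and a threshold of 0.05 on the adjusted p. Each gene's spread is pooled over the 10 groups, so groups with a wide spread also widen the SE of comparisons between other groups. On 32 of the 39 the WT arrays of P3 and P0 did not overlap, against 22.3% of all genes. All 26 mitosis genes rose (median 1.83), and 12 of 13 replication genes did (median 1.18). In bulk tissue a larger share of dividing cells and more of these RNAs per dividing cell cannot be told apart.

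Bub1, a kinase of the spindle checkpoint, had the largest change among them. It read 8.55, 8.18 and 9.36 on the WT P3 arrays, against 5.28, 7.14, 5.17 and 6.33 on the WT P0 arrays. Every P3 array lay above every P0 array, and replicate 2 stood above the other P0 arrays. The means were 8.70 ± 0.60 at P3 (SD, n = 3) and 5.98 ± 0.93 at P0 (n = 4), a difference of 2.71 ± 0.50 (SE) or 6.57-fold (limma, adjusted p = 0.000505). Mki67, the gene of the proliferation antigen Ki-67, read 9.63, 9.28 and 10.34 at P3, against 7.07, 8.92, 7.28 and 8.0 at P0. The groups did not overlap, and the difference was 1.93 ± 0.44 (limma, adjusted p = 0.00304). Top2a read 9.19, 8.83 and 9.81 at P3, against 6.51, 8.27, 6.59 and 7.12 at P0, a difference of 2.15 ± 0.45 (limma, adjusted p = 0.00156). Replicate 2 was again the highest of the P0 arrays, and it was so in 39 of 39 genes. A second, dim probe set for Top2a, with group means from 3.09 to 3.90, gave a difference of 0.73 that was not tested.

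Among the cyclins and mitotic kinases the median change at P3 was 1.8, from 1.35 in Aurka, a centrosomal kinase, to 2.34 in Ccna2, the cyclin of S phase and mitotic entry. Cdk1 read 9.42, 9.17 and 10.09 at P3, against 7.26, 8.59, 6.99 and 7.57 at P0. Its groups did not overlap, and it was higher by 1.96 ± 0.41 (limma, adjusted p = 0.00146). Plk1, the Polo kinase of mitotic entry and exit, was higher by 2.12 ± 0.45 and Ccnb2 by 2.07 ± 0.46 (limma, adjusted p = 0.00163 and 0.00244). Birc5 (survivin), a subunit of the complex that carries Aurora B, was higher by 1.55.

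The kinetochore genes ranged from 1.02 in Ndc80, which binds microtubules, to the 2.71 of Bub1, with a median of 1.77. Of the spindle and cytokinesis genes, with a median of 1.84, the largest changes were those of Kif11, the motor that pushes spindle poles apart, at 2.27 ± 0.51, of Ect2, the exchange factor that activates RhoA at the cleavage site, at 2.19 ± 0.45, of the microtubule bundler Prc1 at 2.04 ± 0.44 and of Nusap1, a spindle protein, at 1.98 ± 0.44, all with adjusted p from limma between 0.00118 and 0.00258. The smallest in that class was Anln (anillin), a scaffold of the contractile ring, at 1.42.

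The changes of the replication genes had a lower median, and whether the 2 classes differed was not tested. Mcm5, a helicase subunit, read 10.05, 9.81 and 10.50 at P3, against 8.11, 9.70, 8.43 and 8.43 at P0, higher by 1.46 ± 0.37 (limma, adjusted p = 0.00664). The groups did not overlap, and P0 replicate 2 came closest to the P3 arrays. Mcm2 read 9.25, 9.0 and 9.75 at P3, against 7.41, 9.22, 7.96 and 8.0 at P0, and the groups overlapped through that same array. Its change was 1.18 ± 0.34 (limma, adjusted p = 0.0154). Pcna read 11.92, 11.69 and 12.02 at P3, against 10.84, 11.07, 11.05 and 10.83 at P0, a change of 0.93 ± 0.23 (limma, adjusted p = 0.00633) with no overlap. A second probe set for Pcna read lower, at 11.31 ± 0.17 at P3 and 10.41 ± 0.33 at P0, a difference of 0.90 that was not tested. Rrm2, the regulated subunit of ribonucleotide reductase, read 8.91, 8.75 and 9.61 at P3, against 6.42, 8.16, 6.88 and 7.06 at P0, and rose by 1.96 ± 0.47 (limma, adjusted p = 0.00442). Hells, a helicase of the SNF2 family, rose by 2.01 ± 0.50 (limma, adjusted p = 0.00586) although its groups overlapped. Cdc6, the loading factor, was the member that did not pass, at 0.73 ± 0.27 (limma, adjusted p = 0.0555).

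**Figure D2:**
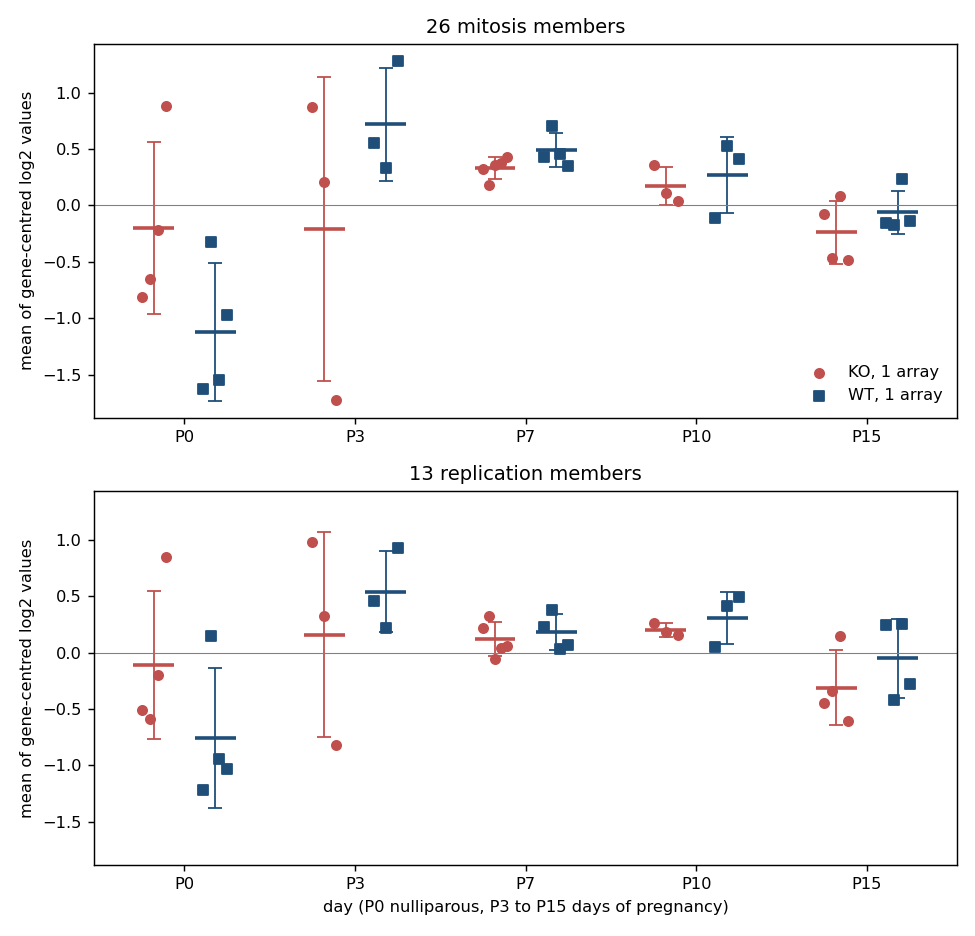
Mean of gene-centred log2 values (vertical axis) of the 26 mitosis genes (above) and the 13 replication genes (below) on each array by pregnancy day, KO circles left of WT squares, with bars for mean ± SD over arrays. WT P0 lies lowest for the mitosis genes at -1.12 ± 0.61, and the 3 KO P3 arrays spread from -1.72 to 0.87.

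On the 3 later days fewer of the 39 passed against P0 in WT glands than at P3, and the median changes were smaller. At P7, 35 of the 39 were higher and none lower, with a median change of 1.40. Of all genes 15.5% were higher and 13.8% lower, with a median of -0.05. At P10, 34 were higher and none lower, with a median of 1.24, against 11.7% of all genes higher, 9.71% lower and a median of -0.02. At P15, 23 were higher and none lower, with a median of 0.88, against 21.6% higher, 27.3% lower and a median of -0.06. The arrays of the later day and of P0 did not overlap in 31 of the 39 at P7, 26 at P10 and 14 at P15, against 29.4%, 26.4% and 38% of all genes. The changes on the 4 days share the same P0 arrays. Mitosis genes passed in 26, 24 and 20 of 26 at P7, P10 and P15, with medians of 1.64, 1.40 and 1.08. Replication genes passed in 9, 10 and 3 of 13, with medians of 0.87, 1.02 and 0.49. The count at P10 rested on few arrays, since 10 remained on leaving out WT P10 replicate 2, 16 without WT P10 replicate 3, 18 without WT P0 replicate 1 and 20 without WT P0 replicate 3. At P15 the count was 11 without WT P0 replicate 1, 13 without WT P0 replicate 3 and 15 without WT P15 replicate 3, and at P3 it was 25 without WT P3 replicate 3.

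At P7 the largest changes were those of Bub1 (2.34 ± 0.46), Kif11 (2.19 ± 0.47), Cenpe, a motor of the kinetochore (2.07 ± 0.38), Mki67 and Top2a (2.01 each), Ccna2 (2.0), Ccnb2 (1.86), Hells (1.84), Cdk1 (1.8) and Nusap1 (1.76). Kif23 had the smallest adjusted p on that day. It read 8.56, 8.84, 8.67 and 8.62 at P7, against 6.84, 7.53, 6.88 and 6.85 at P0, and differed by 1.65 ± 0.29 (limma, adjusted p = 0.000152). Its 2 groups lay over a whole log2 unit apart. Mcm5 (0.85), Mcm3 (0.79), Pcna (0.42) and Cdc6 (0.34) did not pass at P7.

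At P10 the order was led by Bub1 (2.08 ± 0.50), Kif11 (2.06), Ccna2 (1.91), Hells (1.87), Mki67 (1.73), Cdk1 (1.70), Cenpe and Top2a (1.68 each), Rrm2 (1.61) and Bub1b (1.58), a checkpoint kinase. At P15 Hells stood first at 2.04 ± 0.47 (limma, adjusted p = 0.000551), ahead of Ccna2 at 1.94 ± 0.48, Mki67 and Kif11 (1.60 each), Ect2 (1.53), Rrm2 (1.51), Bub1 (1.49), Ccnb2 (1.47), Tpx2, which nucleates spindle microtubules, and Nusap1 (1.22 each). The replication genes that passed at P15 were Hells, Rrm2 and Tyms (0.79 ± 0.30, limma, adjusted p = 0.0287). Pcna read 11.31, 11.01, 11.35 and 10.87 at P15 and differed from P0 by 0.19 (limma, adjusted p = 0.499), its groups overlapping, and Kif23 differed by 0.45 (limma, adjusted p = 0.20).

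In WT glands the group mean was lowest at P0 for all 39 genes. It was highest at P3 for 33, namely 22 mitosis and 11 replication genes. It was highest at P7 for 4, all of mitosis, and at P10 and P15 for 1 replication gene each. With each of the 18 WT arrays left out in turn the lowest stayed at P0 for all 39, while the number highest at P3 was 19 without WT P3 replicate 3 and 30 to 37 without any other. Few of the neighbouring days after P3 could be separated by the fit. From P3 to P7 none of the 39 passed (10% of all genes did), the median difference was -0.31, and 1 gene, Pcna, had an unadjusted p under 0.05, at -0.51 ± 0.23. Mcm5 (-0.60), Tyms (-0.51), Ttk, a checkpoint kinase (-0.51), and Cdc6 (-0.39) came next by p. From P7 to P10 none passed, where 0.208% of all genes did, and none had an unadjusted p under 0.05. The median was -0.12, and the difference was positive in 11 of 13 replication genes and in 0 of 26 mitosis genes. Kif23 (-0.46), Cenpf, a kinetochore protein (-0.45), Gins1 (0.33), Ndc80 (-0.23) and Anln (-0.32) had the smallest p.

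From P10 to P15 the median difference in WT glands was -0.36 and 1 gene fell, against 22.5% of all genes. That gene was Gins1, which read 6.63, 6.22, 6.69 and 6.01 at P15, against 6.92, 7.30 and 7.33 at P10. The groups did not overlap, and the difference was -0.79 ± 0.27 (limma, adjusted p = 0.0198). It did not pass without WT P10 replicate 2, WT P10 replicate 3 or WT P15 replicate 4, its highest adjusted p with 1 array left out being 0.0703, and 2 genes passed without KO P0 replicate 4, KO P3 replicate 1 or 3, or WT P15 replicate 3.

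**Figure D3:**
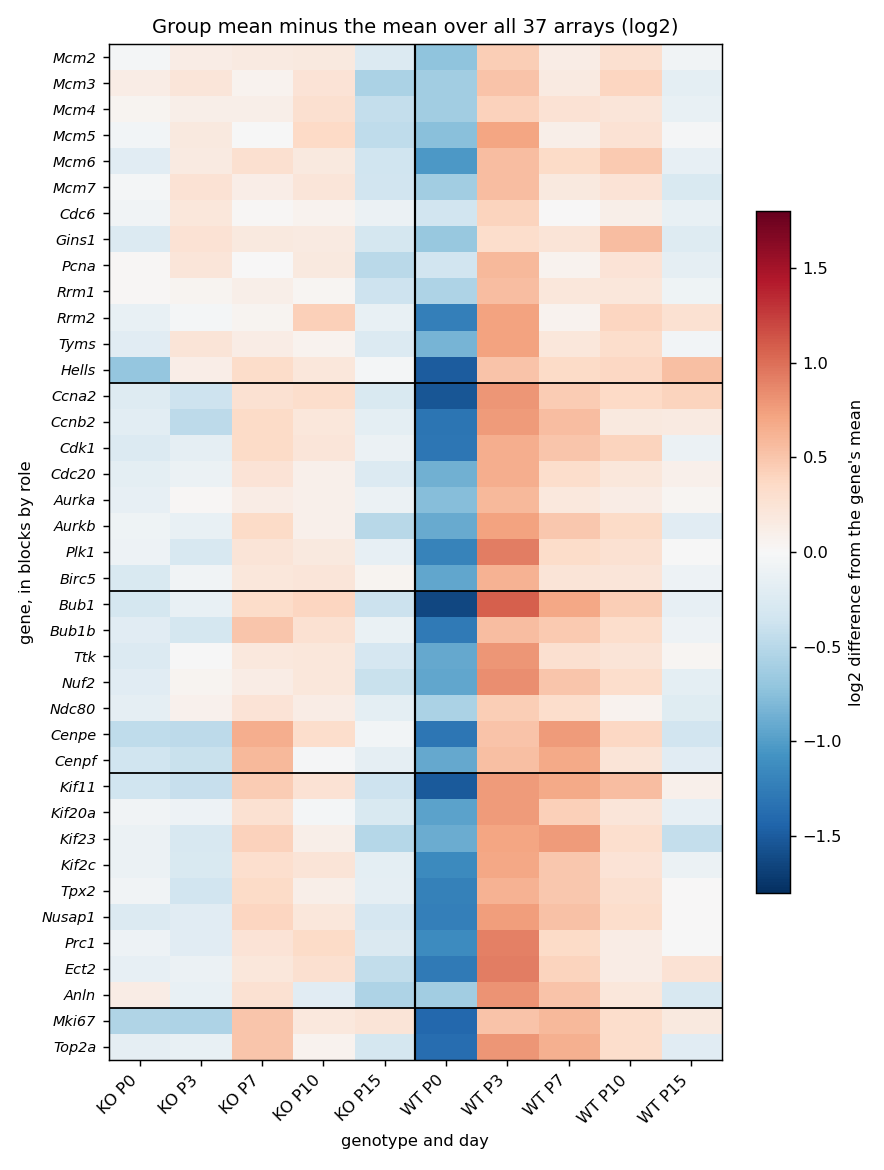
Group means of gene-centred log2 values for the 39 genes (rows, in blocks by role) in the 10 groups (columns, KO left of WT, days in order). In the WT columns P0 is the lowest for all 39 genes, and P3 is the highest for 33.

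Other genes of the same processes were mostly higher in WT glands at P3 too, and at P15 this held for the other mitosis genes alone. They were listed by function, but with earlier results of these data known. At P3, 35 of 38 other replication genes, 60 of 61 other mitosis genes and 10 of 15 cell cycle transcription factors and their partners were higher than at P0, against 11.6% of all genes, with median changes of 0.88, 1.47 and 0.55 and none lower. Prim1, the primase subunit, rose by 1.93 ± 0.37, Dtl, an adaptor of the ligase that clears licensing factors, by 1.8, Chaf1b, of the chromatin assembly factor, by 1.73, and Dbf4, the activator of the Cdc7 kinase, by 1.69. Cks2, a small partner of Cdk1, rose by 2.25 ± 0.39 (limma, adjusted p = 0.000299), the condensin subunit Ncapg by 2.12, the kinetochore scaffold Knl1 by 2.09 and Hmmr, a spindle protein, by 2.06. Of the regulators, the E2F family member E2f8 rose by 2.09 ± 0.43, Foxm1, an activator of G2/M genes, by 1.43 ± 0.35, Mybl2, which joins MuvB, by 0.92 and E2f3 by 0.91. At P15, 9 of 38, 45 of 61 and 4 of 15 were higher than at P0, against 21.6% of all genes, among them E2f8 (1.39), E2f3 (1.04) and Foxm1 (0.86), and 2 of the 15 regulators were lower, against 27.3% of all genes.

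Markers of other cells moved over the same days. The mean gene-centred score of 22 epithelial genes was -0.50 ± 0.58 in WT P0 (n = 4), with replicate 2 the highest at 0.31, -0.23 ± 0.23 in WT P3, 0.04 ± 0.17 in WT P7, -0.09 ± 0.39 in WT P10 and 0.51 ± 0.09 in WT P15. That of 12 white adipocyte genes was 0.38 ± 0.09, 0.24 ± 0.14, 0.05 ± 0.13, 0.26 ± 0.13 and -0.73 ± 0.15 on the same days. The epithelial score was highest at P15, whereas most of the 39 genes were highest at P3. When scores of all 8 marker lists entered the fit as covariates, 0 of the 39 passed at P15 in WT glands and 27 were lower at P15 than at P10. These scores moved with pregnancy day, so their part and that of the day cannot be told apart in this fit. The share of all genes that passed under it is not given here.

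In KO glands few of these genes passed against the KO P0 gland. At P3 none of the 39 passed, where 18.8% of all genes did, 0 had an unadjusted p under 0.05, against 5333 of all genes, and the median was 0.06, with 24 above 0. The smallest p values were those of Gins1 (0.50 ± 0.27, limma, adjusted p = 0.208), Hells (0.81), Tyms (0.44), Ndc80 (0.24) and Mcm7 (0.31). KO P3 replicate 3 was the lowest KO P3 array in 39 of 39 genes and KO P3 replicate 1 the highest in 39 of 39. Without replicate 3 the median was 0.76 and 5 genes passed, namely Hells (1.49), Nuf2 (0.94), Tyms (0.92), Gins1 (0.87) and Birc5 (0.82), and without KO P3 replicate 1 the median was -0.47 and none passed.

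The level in the KO P0 group is part of each such change. Mki67 read 10.01, 9.16 and 6.90 at P3, against 7.94, 8.48, 8.67 and 9.70 in KO P0. The third P3 array lay below all P0 arrays and the first above them all. Bub1 read 8.79, 8.07 and 5.60 at P3, against 6.56, 6.84, 7.21 and 8.61 at P0, and showed the same split. The median SD of the 39 genes was 1.17 in KO P3 and 0.76 in KO P0, against 0.47 in WT P3 and 0.63 in WT P0, while the median SD over all genes was 0.13 to 0.16 in these groups.

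At P7, 2 of the 39 rose in KO glands, where 7.84% of all genes did, the median was 0.41, and 37 were above 0. Cenpe read 7.71, 7.21, 7.57, 7.69 and 7.66 at P7, against 5.86, 6.07, 6.44 and 7.41 at P0, higher by 1.12 ± 0.36 (limma, adjusted p = 0.029). One P0 array, replicate 4, lay inside the P7 range. Cenpf read 7.94, 7.61, 7.71, 7.80 and 7.74 at P7, against 6.19, 6.59, 6.73 and 7.73 at P0, higher by 0.95 ± 0.29 (limma, adjusted p = 0.022). Neither passed without KO P0 replicate 1, 2 or 3 or without KO P7 replicate 1, 1 passed without KO P7 replicate 5, and 9 genes passed without KO P0 replicate 4. The P7 arrays of both genes lay close together, and most of the spread stood in the P0 arrays.

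At P10 none of the 39 passed in KO glands, where 30.7% of all genes did, none had an unadjusted p under 0.05, against 6865 of all genes, and the median was 0.34 with 38 above 0. The smallest p values were those of Cenpe (0.78), Hells (0.89), Mki67 (0.73), Birc5 (0.50) and Gins1 (0.40). The count was 3 without KO P0 replicate 4. At P15, with the array labelled KO P15 replicate 3 included, none passed, where 41.3% of all genes did, 3 had an unadjusted p under 0.05, against 8101 of all genes, and the median was -0.07 with 10 above 0. Pcna was at -0.50 ± 0.22, Mcm3 at -0.70 ± 0.31 and Anln at -0.67 ± 0.30 (limma, adjusted p = 0.0639, 0.0675 and 0.0744), Mcm4 at -0.48, and Mki67 at 0.77. Without that array 2 passed and the median was -0.20. Leaving out KO P3 replicate 3 or 1 or WT P0 replicate 2, which enter only the estimate of spread, gave 4, 3 and 1, and leaving out KO P0 replicate 1, 2 or 4 gave 2 each.

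**Figure D4:**
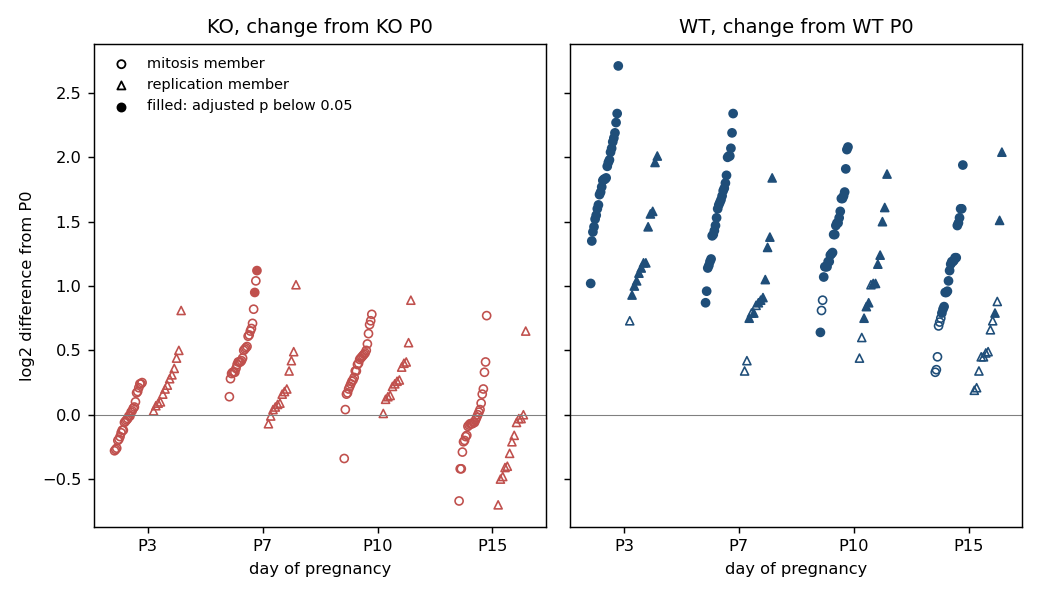
Change from P0 (log2, vertical axis) of each of the 39 genes at P3, P7, P10 and P15, KO panel left and WT panel right, circles for mitosis and triangles for replication genes, filled where the adjusted p was below 0.05. Filled symbols number 0, 2, 0 and 0 in KO and 38, 35, 34 and 23 in WT.

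Of the other listed genes few passed in KO glands. At P10, 3 of 38 other replication genes, 5 of 61 other mitosis genes and 2 of 15 transcription factors and partners were higher than at P0. None were lower, the median changes were 0.29, 0.40 and 0.18, and 30.7% of all genes passed in either direction. Smc4, a condensin subunit, rose by 1.16 ± 0.25 (limma, adjusted p = 0.000823), the replication kinase Cdc7 by 1.08 ± 0.24 (limma, adjusted p = 0.000966) and E2f4, which joins repressor complexes of the cell cycle, by 0.40 (limma, adjusted p = 0.00249). KO P10 replicates 2 and 3 had high lymphocyte scores, and the part of lymphocytes in these changes was not tested. At P3, 2, 0 and 1 were higher and none lower, where 18.8% of all genes passed in either direction. At P7, 1, 1 and 0 were higher, against 7.84% of all genes, and 1 regulator was lower. At P15, with the array labelled KO P15 replicate 3 included, 1, 1 and 2 were higher and 2, 1 and 1 lower. Of all genes 41.3% passed there in either direction.

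The day of the highest and lowest KO group mean turned on single arrays. With all arrays the highest fell on P3 for 5 genes, all of replication, on P7 for 22 and on P10 for 12, but without KO P3 replicate 3 it fell on P3 for 34 and on P7 for 5. The lowest was at P15 for 24, at P3 for 10 and at P0 for 5. It was at P15 for 29 and at P3 for 0 without KO P3 replicate 3, at P3 for 29 and at P15 for 9 without KO P3 replicate 1, and at P0 for 30 and at P15 for 9 without KO P0 replicate 4. Without the array labelled KO P15 replicate 3 the lowest was at P15 for 29, and over the 19 KO arrays left out in turn the count at P15 ran from 9 to 29. Between neighbouring days, 2 rose from P3 to P7 in KO glands, against 9.56% of all genes, and they were again Cenpe (1.13 ± 0.39, limma, adjusted p = 0.0422) and Cenpf (0.99 ± 0.31, limma, adjusted p = 0.028). Neither passed without KO P3 replicate 3 or KO P7 replicate 1, 1 did without KO P7 replicate 3, 4 or 5, and 10 genes passed without KO P3 replicate 1. From P7 to P10 none passed, where 24% of all genes did, and none had an unadjusted p under 0.05. The median was -0.07, and Cenpf (-0.61), Anln (-0.48), Kif23 (-0.32), Mcm5 (0.37) and Top2a (-0.44) had the smallest p.

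From P10 to P15 Pcna fell in KO glands, against 16% of all genes, and the median over the 39 was -0.41. It read 10.76, 10.66, 11.36 (the array labelled KO P15 replicate 3) and 10.50 at P15, against 11.49, 11.65 and 11.27 at P10. That array overlapped the P10 range and the others did not, and the difference was -0.65 ± 0.23 (limma, adjusted p = 0.0319). By the second Pcna probe set it was -0.51, which was not tested. Without that array or without KO P3 replicate 3, 4 genes passed, 3 did without WT P0 replicate 2, KO P0 replicate 4 or KO P3 replicate 1, and Pcna did not pass without KO P10 replicate 1 or 2 or without KO P15 replicate 1, 2 or 4. Some genes did not pass although their P15 arrays all lay below the P10 arrays. Among them were Mcm3 (-0.82), Mcm5 (-0.81), Bub1 (-0.77), Ect2 (-0.73), Mcm4 (-0.71) and Kif23 (-0.62). Others, such as Kif11 and Mki67, overlapped. The share of all genes without overlap is not given here. More genes passed when the 2 groups were fitted alone, as given below.

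The nulliparous KO gland read higher than the WT gland in each of the 39 genes, but none passed over all genes tested. At P0, 1.7% of all genes passed in either direction. The median difference over the 39 was 0.81, against -0.01 over all genes, and 32 had an unadjusted p under 0.05, against 3504 of all 16865 genes. The medians were 0.95 over the mitosis genes and 0.67 over the replication genes. The smallest p was that of Bub1b, at 1.07 ± 0.35 (limma, adjusted p = 0.101), followed by Tpx2 (1.14, adjusted p = 0.105), Top2a (1.21 ± 0.42, adjusted p = 0.12), Bub1 (1.33 ± 0.46, adjusted p = 0.12) and Kif2c, a kinesin that depolymerises microtubule ends (1.04 ± 0.36, adjusted p = 0.121), in the same limma fit. The groups overlapped in all 39, while they did not in 8.04% of all genes.

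In Top2a and Cdk1 the overlap came from 1 WT array. Top2a read 7.65, 7.89, 8.29 and 9.48 in KO P0, against 6.51, 8.27, 6.59 and 7.12 in WT P0. By its second, dim probe set the difference was 0.23, which was not tested. Cdk1 read 8.0, 8.14, 8.56 and 9.89 in KO P0, against 7.26, 8.59, 6.99 and 7.57 in WT P0. WT replicate 2 alone reached into the KO range, and KO replicate 4 stood far above the rest, being the highest KO P0 array in 39 of 39 genes. On leaving out WT P0 replicate 2, 25 of the 39 passed, all higher, 16 of them of mitosis and 9 of replication, and the median was 1.10. That array was the highest of WT P0 in 39 of 39 genes, so leaving it out widens the difference in each. The share of all genes that passed in that fit is not given here. Without KO P0 replicate 4 none passed and the median was 0.45, and 7 passed without KO P3 replicate 3, which enters only the estimate of spread. Scores of other cells differed too, since the epithelial score was -0.01 ± 0.32 in KO P0 and -0.50 ± 0.58 in WT P0, and that of 12 macrophage genes was 0.56 ± 0.29 in KO P0 and -0.04 ± 0.51 in WT P0 (SD, n = 4 each). Their part in the difference was not tested beyond the fit with marker scores as covariates, in which none of the 39 passed either.

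At P3 all 39 read lower in KO than in WT glands by the group means and none passed, where 0.119% of all genes did. The median was -0.82, and 19 had an unadjusted p under 0.05, against 1198 of all genes. It was -0.95 over the mitosis and -0.36 over the replication genes. Kif23 had the smallest p at -1.0 ± 0.34 (limma, adjusted p = 0.431), before Anln and Cenpf (-0.94 each), Plk1 (-1.21) and Ccnb2 (-1.23). The median rested on KO P3 replicate 3, being -0.08 without it, and it was -1.34 without KO P3 replicate 1. The epithelial score was -0.22 ± 0.28 in KO P3 and -0.23 ± 0.23 in WT P3 (SD, n = 3 each). Plk1 shows the pattern, with 9.10, 8.48 and 6.19 in KO P3, against 8.82, 8.75 and 9.82 in WT P3. The first KO array lay between the WT values, the second just below them and the third far below.

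From P7 on the differences between the genotypes had medians closer to 0 than at P0 and P3. None of the 39 passed at P7, P10 or P15, where 0.00593%, 17.2% and 11.1% of all genes did, and none had an unadjusted p under 0.05 on any of these days, against 443, 5199 and 4013 of all genes. The medians were -0.10, -0.10 and -0.21. At P7 the spread was small, with a median SD of 0.15 in KO and 0.17 in WT, so that Mki67 lay between 9.55 and 9.84 on the 5 KO arrays and between 9.79 and 9.91 on the 4 WT arrays. The tests used a larger spread, pooled over all groups, and the median SD was 0.76 in KO P0 and 1.17 in KO P3. Bub1, with SDs of 0.15 in KO P7 and 0.24 in WT P7, was given an SE of 0.44. That none passed on these days therefore does not show equal levels in the 2 genotypes. Kif23 read 8.45, 7.89, 8.29, 8.54 and 8.47 in KO P7, against 8.56, 8.84, 8.67 and 8.62 in WT P7, a difference of -0.35, and with Bub1 (-0.37) it was 1 of 2 genes whose groups did not overlap, against 1.78% of all genes. Nuf2, of the Ndc80 complex (-0.37), Anln (-0.25) and Mcm4 (-0.16) came next.

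At P10 Gins1 read 7.09, 6.59 and 6.65 in KO, against 6.92, 7.30 and 7.33 in WT, a difference of -0.41 (limma, adjusted p = 0.366) with overlapping groups. Anln (-0.41), Tyms (-0.26), Cenpf (-0.25) and Mcm6 (-0.30) were the next by p. The B and T lymphocyte scores of KO P10 were 2.55 ± 2.48 and 2.33 ± 1.8, against -0.31 ± 0.04 and -0.19 ± 0.09 in WT P10 (SD, n = 3 each). With marker scores as covariates the differences of Gins1, Anln, Tyms and Cenpf changed sign, and none passed. At P15 Ect2 read 8.07, 7.66, 8.22 (the array labelled KO P15 replicate 3) and 7.52 in KO, against 8.50, 8.41, 8.80 and 8.56 in WT. It was the one gene of the 39 whose groups did not overlap, against 19.1% of all genes, and the difference was -0.70 ± 0.41 (limma, adjusted p = 0.327). In a fit of the 2 P15 groups alone, for which the share of all genes is not given here, Ect2 and Ccnb2 (-0.33) passed. Pcna (-0.32, and -0.07 by its second probe set), Ccna2 (-0.67), Mcm3 (-0.40) and Mcm5 (-0.44) followed by p, and without the array labelled KO P15 replicate 3 the median was -0.33.

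**Figure D5:**
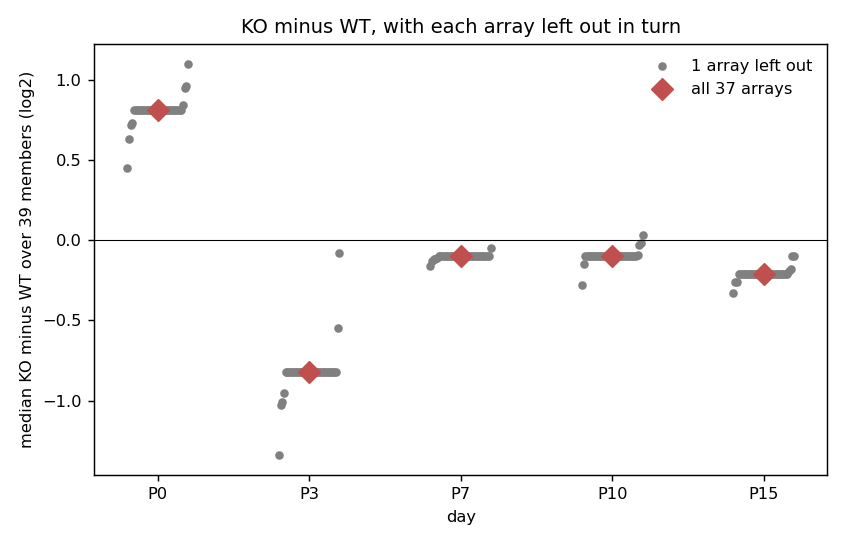
Median over the 39 genes of the difference KO minus WT (log2, vertical axis) on each pregnancy day, the diamond from all 37 arrays and grey points with 1 array left out at a time. At P0 the points run between 0.45 and 1.10 and at P3 between -1.34 and -0.08.

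Because the P0 and P3 differences had opposite signs, the change from P0 to P3 was compared between the genotypes directly. It was smaller in KO than in WT glands for 2 of the 39 after adjustment, against 1.67% of all genes with a lower change in KO. The median over the 39 was -1.68, against 0.00 over all genes, and 35 had an unadjusted p under 0.05, against 3236 of all 16865 genes. Plk1 changed by 2.32 ± 0.64 less on the log2 scale in KO (-2.32, limma, adjusted p = 0.0499). Kif23 read 8.51, 8.06 and 6.30 in KO P3 and 7.36, 7.5, 7.80 and 8.59 in KO P0, while it read 8.57, 8.23 and 9.07 in WT P3 and 6.84, 7.53, 6.88 and 6.85 in WT P0. The change by group means was -0.19 ± 0.31 in KO (limma, adjusted p = 0.746) and 1.60 ± 0.31 in WT, and the difference between the changes was -1.79 (limma, adjusted p = 0.0288). Anln (-1.68, adjusted p = 0.0507), Tpx2 (-2.11) and Bub1b (-1.94, adjusted p = 0.0513 each) were next by p in the same limma fit, and Bub1 (-2.53, adjusted p = 0.0535) and Ccnb2 (-2.34, adjusted p = 0.0537) were larger.

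Both calls rested on single arrays. Without KO P3 replicate 3 Plk1 was at -1.45 (limma, adjusted p = 0.18) and Kif23 at -1.13 (0.101), and without KO P0 replicate 4 Plk1 was at -1.91 (0.0973) and Kif23 at -1.53 (0.0606). Plk1 passed in 6 of 37 fits with 1 array left out, and Kif23 in 32 of 37. Of the 39, 32 passed on leaving out WT P0 replicate 2, 28 on leaving out KO P3 replicate 1, 16 without KO P3 replicate 2, 10 without KO P0 replicate 1 and 7 without WT P3 replicate 1. It was 0 without KO P0 replicate 4, KO P3 replicate 3, WT P0 replicate 1 or WT P0 replicate 4, and 1 in most other fits. The shares of all genes that passed in these fits are not given here, so the counts cannot be set against them. Outside the 39, Aspm, a spindle pole protein (-1.83, limma, adjusted p = 0.0202), and Cks1b, a partner of cyclin-dependent kinases (-0.97, adjusted p = 0.0324), also had a smaller change in KO.

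In the change to P7 none of the 39 differed, where 0.32% of all genes did, although 16 had an unadjusted p under 0.05, against 2568 of all genes, and the median was -0.97. In the change to P10 none did, where 10.6% of all genes did, with 8 at an unadjusted p under 0.05, against 4443 of all genes, and a median of -0.96. Leaving out WT P0 replicate 2 gave 4 at P10 (Mcm3, Mcm6, Tpx2 and Top2a), and leaving out KO P3 replicate 3 gave 2 (Kif23 and Anln). In the change to P15, 1 gene had a lower value in KO, against 5.3% of all genes, the median was -1.04, and 24 had an unadjusted p under 0.05, against 4405 of all genes. That gene was Ect2, at -1.81 ± 0.58 (limma, adjusted p = 0.0445), or -1.93 (0.0426) without the array labelled KO P15 replicate 3. It read 7.54, 7.51, 8.12 and 9.45 in KO P0, against 6.32, 7.93, 6.56 and 7.35 in WT P0, so the contrast joins a higher KO level at P0 with a lower one at P15. It was at -1.38 (0.106) without KO P0 replicate 4, and it passed in 22 of 37 fits with 1 array left out, while 16 of the 39 passed on leaving out WT P0 replicate 2 and 7 on leaving out KO P3 replicate 3, with 2 on leaving out KO P0 replicate 1 or KO P3 replicate 1. The shares of all genes that passed with an array left out are not given here. All 4 comparisons share the P0 arrays of both genotypes.

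Over the 5 days taken at once, the F test for a genotype difference that was not the same on each day called 1 of the 39, against 18% of all genes. That gene was Kif23 (F = 4.34, limma, adjusted p = 0.0421), and 18 of the 39 had an unadjusted p under 0.05, against 5821 of all 16865 genes. Ect2, Anln, Tpx2 and Bub1 were next, with adjusted p of 0.066, 0.0691, 0.0718 and 0.0738 in that limma test. Kif23 passed in 18 of 37 fits with 1 array left out and did not without KO P0 replicate 4 (adjusted p = 0.0933, and 0 of the 39 called), while 25 genes passed on leaving out KO P3 replicate 1, 19 on leaving out WT P0 replicate 2 and 2 to 4 on leaving out KO P0 replicate 1 or 2, KO P3 replicate 2 or 3, or KO P10 replicate 1. For these fits too the shares of all genes called are not given.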

How the data were processed

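The deposited values were log2 intensities of 34760 probe sets on 37 arrays (19 KO, 18 WT), made by the authors with affy, per the submitters' processing notes. How the background was corrected, probes summarised and arrays normalised is not given in the sources used here. Array medians lay between 6.52 and 6.79. A probe set was used where the platform annotation gave 1 symbol (21640 probe sets, against 1321 with several and 11799 with none), and of several for a gene the one with the highest mean. Genes above the 25th percentile of all values (4.96) on at least 3 arrays were tested, and 3072 were left out. Tables were read with Python 3.11.15, pandas 2.3.3 and numpy 2.4.6, and limma 3.58.1 in R 4.3.3 fitted 10 group means over all arrays, with Benjamini-Hochberg adjustment over 16865 genes and a threshold of 0.05. Tested were KO minus WT on each day, changes from P0, steps between days, the genotype difference in each change and an F test; the script was tested on simulated data.

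The genes and lists were chosen with earlier results of these data known. Named were up to 10 genes past the threshold per comparison by size of difference, or up to 5 with the smallest p where none passed, and up to 4 from each further list. Array values were printed for a set list (Mki67, Top2a, Cdk1, Mcm2, Mcm5, Pcna and Rrm2) and for those a result turned on. The main fit did not pair arrays by replicate number. Of 64 same-numbered pairs, within and across days, 18 correlated above 0.1, and the range was -0.52 to 0.49. Whether arrays of the same number shared a batch was not tested. Scores are means of gene-centred log2 values. Alternatives were leaving out each array, no filter, quantile normalisation, median centring, a trended and robust prior, a replicate block, marker scores as covariates, leaving out arrays with unusual markers, and the compared groups alone. Leaving out the 2 arrays closest to another day was added after seeing the data. The shares of all genes that passed under these alternatives are not given in this report.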

Additional observations from a re-analysis of the deposited data

Results flagged for a closer look

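Of 66 groups of 4 or 5 arrays in which the values of single genes or list means were compared, 3 held an array whose gap to its neighbour exceeded Dixon's critical value, and chance flags about 1 in 20 groups. The mean gene-centred value of the 26 mitosis genes was 0.23 in WT P15 replicate 3, above the other WT P15 arrays, and Top2a read 8.94 there, against 8.07, 8.07 and 8.09 on the others. Ptpn1 read 8.68 on the array labelled KO P15 replicate 3, above the other KO P15 arrays.

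A further 4 results showed a response that differed between the genotypes by a test of the difference itself. The change from P0 to P3 was lower in KO than in WT by 2.32 for Plk1 (-2.32 on the log2 scale) and by 1.79 for Kif23 (-1.79). Of all genes 1.67% passed with a lower change, and Plk1 passed in 6 and Kif23 in 32 of 37 fits with 1 array left out. The change from P0 to P15 was lower by 1.81 for Ect2 (-1.81). Of all genes 5.3% passed with a lower change there, and Ect2 passed in 22 of 37 such fits. For Kif23 the genotype difference varied over the 5 days, with an adjusted p of 0.0421 in the limma F test. That test called 18% of all genes, and Kif23 passed it in 18 of 37 fits with 1 array left out.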

How the results depend on the processing

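Quantile normalisation moved no count of the 39 genes by over 1.5 times, and of 5694 values of single genes under an alternative 5683 kept their direction. In many of these the direction was fixed in advance. Leaving out an array outside the compared groups, dropping the filter or changing the prior leaves a difference of group means unchanged. Main counts are those of the report. Under marker scores as covariates the counts higher than P0 in WT were 21, 22 and 0 on days 7, 10 and 15, the KO counts against P0 were 1 at P10 and 11 at P15 (lower), 27 (WT) and 23 (KO) were lower at P15 than at P10, 0 passed between P3 and P7 in KO, the changes to P3 and P15 differed by genotype in 1 and 0, and the F test called 2. Under the same setting KO minus WT at P10 turned to 0.17 (Gins1), 0.09 (Anln), 0.23 (Tyms) and 0.10 (Cenpf), the KO step from P7 to P10 to 0 (Cenpf), 0.24 (Anln) and 0.42 (Top2a), and the genotype difference in the change to P10 to 0.07 (Gins1), none of them past the threshold.

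The 8 arrays with unusual markers or Ptpn1 included WT P0 replicates 3 and 4, WT P7 replicate 1 and KO P3 replicate 1. The others were KO P7 replicate 3, KO P10 replicates 2 and 3 and KO P15 replicate 3. Leaving them out kept only replicate 1 of KO P10 and only replicates 1 and 2 of WT P0. Of these, WT P0 replicate 2 was the highest WT P0 array in 39 of 39 genes. In that fit WT held 15, 2 and 9 genes above P0 on the 3 later days, KO held 3 below it on the last and 6 rose from P3 to P7 in KO. The changes to P3 and P15 differed in 0 each. KO minus WT at P10 turned to 0.02 for Tyms, and the KO change to P3 turned to -0.12 for Ndc80, also without KO P3 replicate 1 (range -0.12 to 0.56 with 1 array left out). Fitting the compared groups alone gave 2 lower in KO at P15, 21 and 7 higher in WT at P3 and P10, 2 lower from P3 to P7 and 12 from P10 to P15 in WT, 0, 3 and 9 for the 3 KO steps, and 0 for the changes to P3 and P15. Without the 2 arrays closest to another day, chosen after seeing the data, the KO counts were 5 at P3 and 4 at P15, the steps gave 2 (WT P10 to P15), 0 (KO P3 to P7) and 4 (KO P10 to P15), the changes to P3, P10 and P15 differed in 0, 1 and 7, and the F test called 3.

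The fit with a replicate block gave 0 for KO at P7, 0 for the KO step from P3 to P7, 1 and 0 for the changes to P3 and P15 and 0 for the F test, and changed no other count by over 1.5 times; 16 of 36 arrays correlated best with their own number. Without the filter the changes to P3 and P15 differed in 1 and 0, median centring gave 1 for the change to P3 and 0 for the KO step from P10 to P15, and the trended and robust prior gave 1 for the change to P3. With each array left out in turn the counts ran from 0 to 25 for KO minus WT at P0, 25 to 39 for WT at P3, 10 to 38 at P10 and 11 to 33 at P15, 0 to 5, 0 to 9, 0 to 3 and 0 to 4 for KO on the 4 days, 0 to 2 for the WT step from P10 to P15, 0 to 10 and 0 to 4 for the KO steps from P3 to P7 and from P10 to P15, 0 to 32, 0 to 4 and 0 to 16 for the changes to P3, P10 and P15, and 0 to 25 for the F test. The days of the highest and lowest group means were also taken with each array left out in turn, which was chosen after seeing the data. The causes were not tested.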
